A study of Homo sapiens with 22 samples.

Results

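Described here are 937 H3R2me2a regions at gene starts, with few sequencing tags, out of 8819 H3R2me2a regions deposited for the series. They were chosen by 4 conditions: a region of the authors' cluster II, the promoter list, the position class for transcript starts (a window of 1250 bp), and a tagcount below 100. The short arm of chromosome 12, read as starts below 36 Mb, was left out, which removed 11 regions. Tagcount is the authors' whole number of ChIP-seq tags in a region. Because the members were selected on tagcount, their tags, and the widths, which move with tags, are given as descriptions with no test. The members are set beside the 483 cluster II start promoters with 100 tags or more and, where it helps, the 2339 start promoters of cluster III, with the same short arm left out of each.

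The study measured histone marks by chromatin immunoprecipitation and sequencing in NT2/D1, a pluripotent cell line of human embryonal carcinoma that differentiates in all-trans retinoic acid (ATRA). Of its 22 libraries, 2 supplied the region lists: H3R2me2a in CRISPR/Cas9 control cells given 1 µM ATRA for 3 days, and H3R2me2a in CRISPR/Cas9 control cells without ATRA. Cluster III and the promoter list were deposited under the library with ATRA, and cluster II under the library without it. Cells deleted for PRMT6 and the libraries of other antibodies were not analysed here. The antibody was a rat monoclonal made by the submitters, and whether the control cells were 1 clone is not stated. There was 1 library per condition, so no value has a replicate check and no p-value was computed. Ranges in brackets are 95% intervals, exact binomial ones for shares and order-statistic ones for medians, and cover counting error or the spread of regions only. All region coordinates are on hg19.

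H3R2me2a is the asymmetric dimethylation of arginine 2 in the tail of histone H3, placed by the methyltransferase PRMT6. It sits next to lysine 4, whose trimethylation marks active promoters, and it is known to hinder the complexes that write that lysine mark. Promoters of widely expressed human genes are mostly CpG islands, stretches rich in CG dinucleotides that carry short recognition words for factors such as SP1, NF-Y, ETS proteins, YY1, NRF1 and ZNF143.

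Of all 7-base DNA words, the one whose share differed most between these promoters and those of cluster III was ACTACAA. It is part of a longer promoter sequence linked to the zinc finger transcription factor ZNF143. That factor is known for binding promoters of small nuclear RNA and protein-coding genes. ZNF143 core is used here only as a label for these 7 letters, and which protein reads them was not tested. As examples, 8 sites are printed with 10 bases before the core and the bases after it, so that the letters line up. Members were taken by falling tagcount, with 1 site per gene, and only sites where TCCC stood 1 base after the core and all 40 bases lay before the RefSeq start were kept. That choice was made after the word counts were seen, so the TCCC in every line comes from the choice. Genes with a core that did not meet it, such as SIRT2, were passed over. Each is 40 bases long, 5′ to 3′ on the strand that reads ACTACAA, credited to RefSeq promoters on GRCh38.p14. Capitals mark the core and the TCCC that followed it.
C11orf58: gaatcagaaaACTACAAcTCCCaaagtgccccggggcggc
STK25: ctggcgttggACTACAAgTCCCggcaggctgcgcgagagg
ZNF317: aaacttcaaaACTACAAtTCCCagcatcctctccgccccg
ADO: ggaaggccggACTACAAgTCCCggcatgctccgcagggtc
RP11-342M1.3: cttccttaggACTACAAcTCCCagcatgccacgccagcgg
CEP128: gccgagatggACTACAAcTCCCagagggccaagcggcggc
DOCK4: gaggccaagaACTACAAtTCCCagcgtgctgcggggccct
PA2G4: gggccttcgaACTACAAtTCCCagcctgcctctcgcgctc

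On GRCh38.p14 the sites were C11orf58 at chr11:16738579-16738618 (plus), STK25 at chr2:241508681-241508720 (plus), ZNF317 at chr19:9140307-9140346 (plus), ADO at chr10:62804677-62804716 (plus), RP11-342M1.3 at chr1:42846426-42846465 (plus), CEP128 at chr14:80941775-80941814 (minus), DOCK4 at chr7:112206477-112206516 (minus) and PA2G4 at chr12:56104458-56104497 (minus). These 8 regions had 93 to 99 tags. STK25 encodes a kinase of the Golgi, ZNF317 a zinc finger protein, ADO a dioxygenase that acts on cysteamine, CEP128 a centriole protein, DOCK4 an exchange factor for small GTPases and PA2G4 a growth-related RNA-binding protein. The core's centre lay before the RefSeq start in all 8 promoters, from -110 at STK25 to -25 at RP11-342M1.3. The base between the core and TCCC varied.

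Whole promoters are also shown for members chosen by their composition, not for holding ACTACAA. Of the named genes whose RefSeq start lay within 100 bp of the start of the authors' transcript, EIF4B (a translation initiation factor) had the highest ratio of observed to expected CG pairs (1.15), ZC4H2 (a zinc finger gene of neural development) the lowest (0.417), and NDUFS7 (a subunit of respiratory complex I) the most kinds of motif (5). The 250 bases before each RefSeq start are printed, credited to RefSeq on GRCh38.p14, with capitals for any of the 11 motifs listed further on. EIF4B lay at chr12:53006206-53006455 on the plus strand, ZC4H2 at chrX:64976451-64976700 on the minus strand and NDUFS7 at chr19:1383657-1383906 on the plus strand.
EIF4B: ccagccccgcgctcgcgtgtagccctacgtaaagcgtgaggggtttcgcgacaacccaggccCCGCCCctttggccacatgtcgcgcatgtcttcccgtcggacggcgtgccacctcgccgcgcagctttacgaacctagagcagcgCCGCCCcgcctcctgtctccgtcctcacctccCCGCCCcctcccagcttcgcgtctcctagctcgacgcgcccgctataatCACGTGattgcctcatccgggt
ZC4H2: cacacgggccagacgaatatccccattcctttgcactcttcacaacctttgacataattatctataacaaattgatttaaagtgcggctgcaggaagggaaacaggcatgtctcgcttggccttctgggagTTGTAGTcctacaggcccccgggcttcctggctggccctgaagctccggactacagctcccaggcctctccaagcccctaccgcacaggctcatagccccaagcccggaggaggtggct
NDUFS7: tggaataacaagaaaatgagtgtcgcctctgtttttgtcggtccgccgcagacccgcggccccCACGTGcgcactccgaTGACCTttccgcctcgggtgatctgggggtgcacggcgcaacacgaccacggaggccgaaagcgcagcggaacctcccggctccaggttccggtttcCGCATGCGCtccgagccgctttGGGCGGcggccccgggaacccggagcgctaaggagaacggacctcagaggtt

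In these bases EIF4B held several copies of the GC box and an E-box, and no ZNF143 core. ZC4H2, low in CG pairs, held the core in reverse. NDUFS7 showed 4 kinds of motif in these bases, none of them the ZNF143 core, and the 5th was not wholly inside them. The 3 regions had 71, 75 and 79 tags, in that order.

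The members had a median tagcount of 56 (54 to 58), with a range of 35 to 99 and quartiles of 44 and 73. Cluster II start promoters of 100 tags or more had a median of 158 (150 to 169), and cluster III start promoters 29 (28 to 30). In cluster III, tagcount was a median of 0.486 times the MACS tags deposited for the same regions, so its tagcounts do not stand for the tags its peaks were deposited with. MACS tags were not used for cluster II. In bulk cells, fewer cells carrying the mark and less mark per cell cannot be told apart. No member had fewer than 35 tags, the lowest value in all of cluster II, and 22 stood at exactly 35. They included MDH2 (mitochondrial malate dehydrogenase, 366 bp wide), ASNA1 (a factor for inserting tail-anchored membrane proteins, 343 bp), CHMP2A (a membrane-remodelling ESCRT protein, 407 bp) and GLI1 (a transcription factor of Hedgehog signalling, 346 bp, 944 bp after the start). At the other end 10 members stood at 99, among them IWS1 (a transcription elongation factor, 834 bp), DPAGT1 (the first enzyme of N-glycan assembly, 708 bp), FBXO46 (an F-box protein gene, 520 bp), STK25 (595 bp) and ZNF317 (456 bp). The limit of 100 fell in a continuous run of values. The 36 regions of 95 to 99 tags had a median width of 605 bp, and the 33 regions of 100 to 104 tags, which are no members, 618 bp. Regions just outside it, at 100 tags, included ENKD1 (536 bp), FYCO1 (689 bp), GAPVD1 (514 bp) and GRK4 (530 bp).

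Members were narrow. Their median width was 466 bp (457 to 474), against 742 bp (723 to 761) in cluster II of 100 tags or more and 522 bp (513 to 529) in cluster III. Per kb of region, members held a median of 120 tags (119 to 123), between the 217 (209 to 225) of the high-tag group and the 54.6 (53.8 to 55.7) of cluster III, which rests on that lower count. Widths ran from 271 bp at SRPRB, a subunit of the signal recognition particle receptor, and 278 bp at CTNNB1, the β-catenin gene, to 877 bp at ZNF219 and 946 bp at the histone gene HIST1H2AD. The cyclin D1 gene CCND1, which drives entry into the cell cycle, was also among the 5 widest, with 837 bp and 98 tags. Tags were densest at HTRA2, a mitochondrial protease gene (247 per kb, 93 tags in 377 bp), and at ZSWIM6 (244 per kb). They were sparsest at MCL1, which encodes an inhibitor of apoptosis (74.1 per kb, 37 tags in 499 bp).

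**Figure D1:**
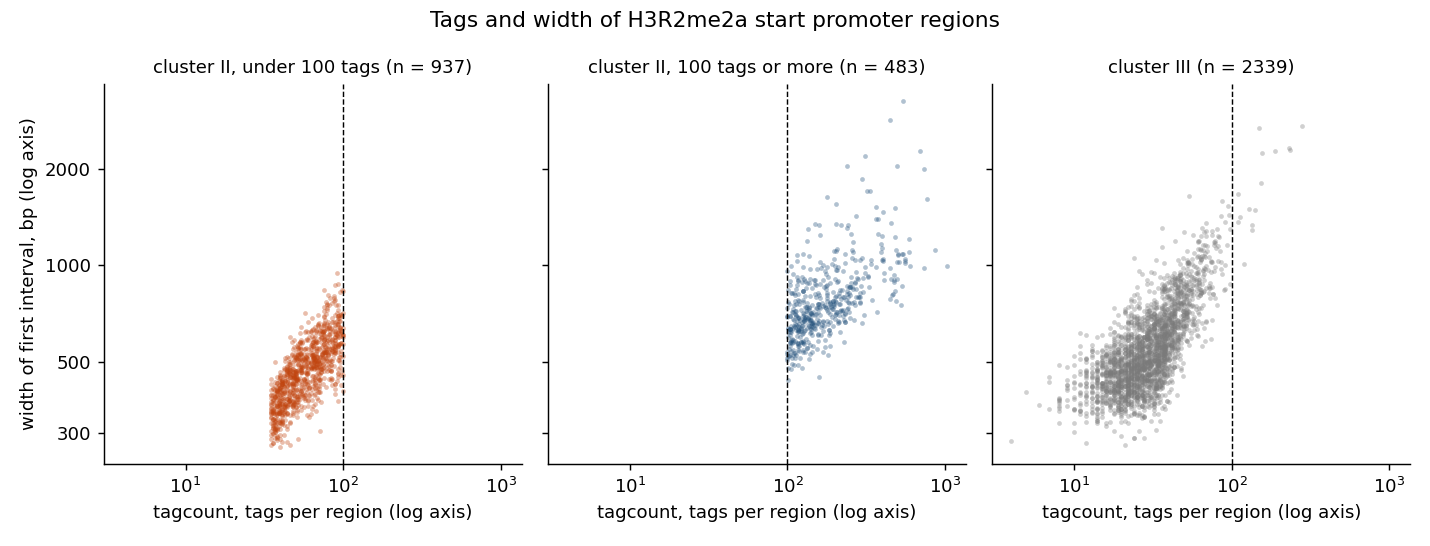
Tagcount in tags per region (log axis) against the width of the first interval in bp (log axis) for cluster II start promoters under 100 tags (left, n = 937), those of 100 tags or more (middle, n = 483) and cluster III start promoters (right, n = 2339). Each point is 1 region and the dashed line is the limit of 100 tags. Width runs upward with tags in every panel, and the members form the lower part of the cluster II cloud with medians of 56 tags and 466 bp.

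Most members lay on top of the start. Their median distance was 53 bp (49 to 58), against 71 bp (62 to 84) in the high-tag group and 66 bp (62 to 71) in cluster III. Within 100 bp lay 72.1% of members (69.2 to 74.996), against 60.04% of the high-tag group (55.5 to 64.4) and 61.9% of cluster III (59.9 to 63.9). Within 250 bp the shares were 90.1% of members, 90.1% of the high-tag group and 84.4% of cluster III. By the sign of the authors' distance, 69.1% of members (66.0 to 72.0) lay before the start, 71.8% of the high-tag group (67.6 to 75.8) and 55.7% of cluster III (53.7 to 57.7). The point of a region from which the distance was measured is not given, and starts implied by region centres differed by a median of 100 bp between regions of 1 transcript. Sides within that distance are therefore uncertain. Counting only regions more than 100 bp away, 20.2% of members lay before the start and 7.68% after it, against 28.0% and 12.01% in the high-tag group and 20.9% and 17.2% in cluster III. A total of 7 members were farther away than the 1250 bp window that named their class, up to 1536 bp. LIN28A, an RNA-binding pluripotency factor, was one of them (distance -1427 bp, that is, before the start, 45 tags).

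Each cluster II region came with a second, overlapping interval, and the library behind it is not stated. In members this second interval was usually the wider one. Its median width was 666 bp (651 to 677), against 908 bp (882 to 933) in the high-tag group. It was wider than the first in 857 of 937 members (91.5%, 89.5 to 93.2), narrower in 78 and equal in 2. It was wider in 85.3% (81.8 to 88.3) of the high-tag group. The ratio of the second width to the first had a median of 1.42 (1.39 to 1.45) in members and 1.21 (1.19 to 1.24) in the high-tag group. Among members the median ratio was 1.60 at 35 to 44 tags, 1.43 at 45 to 54, 1.39 at 55 to 69, 1.33 at 70 to 84 and 1.29 at 85 to 99. The first width enters that ratio and moves with the tagcount that chose the members, so the gradient is a description. The first interval lay wholly inside the second in 67.9% of members (64.8 to 70.9) and 61.3% of the high-tag group (56.8 to 65.7). The paired summits were a median of 35 bp apart (31 to 38) in members and 21 bp apart (18 to 25) in the high-tag group.

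Of the 5 largest ratios, 3 were at genes with histone names. At HIST1H1B, a linker histone gene, the first interval was 352 bp (chromosome 6, 27835073 to 27835424, 36 tags) and the second 2836 bp, a ratio of 8.06. RP11-196G18.21 followed with 302 and 1883 bp (6.24) and HIST1H3J with 441 and 2564 bp (5.81). The small nucleolar RNA gene SNORA73B had 753 and 4280 bp (5.68), and HIST1H2BK 430 and 2428 bp (5.65). At the opposite end the second interval was the narrower one at the histone gene HIST1H2BH (770 and 461 bp, 0.599), the ubiquitin-conjugating enzyme gene UBE2B (527 and 318 bp, 0.603) and CCND1 (837 and 524 bp, 0.626). Histone genes thus stood at both ends of the range. The 20 member regions of clustered histone genes had a median ratio of 2.81, against 1.42 in all members. That list was made after the values were seen. Of the 937 members, 38 (4.06%) shared their second interval with another cluster II region.

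**Figure D2:**
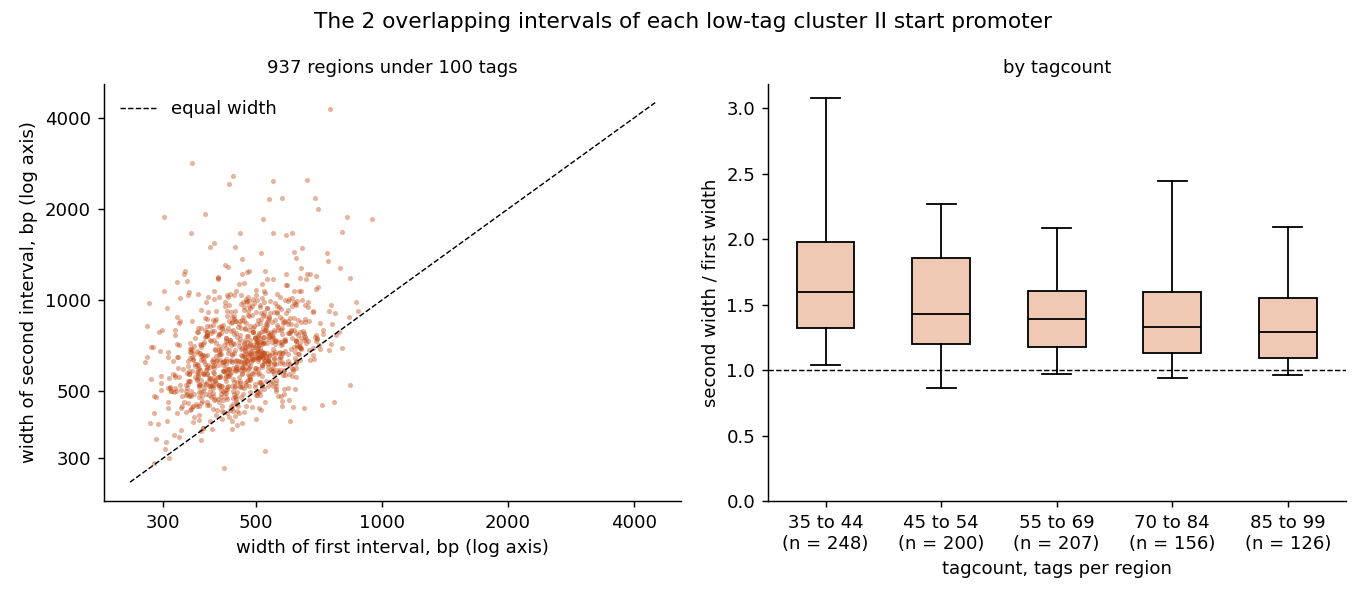
Left, the width of the first interval against that of the second in bp (log axes) for the 937 members, each point 1 region and the dashed line equal width. Right, the ratio of second to first width by tagcount, with boxes for the quartiles, a line for the median and whiskers at the 5th and 95th percentiles. Most points lie above the line of equal width, and the median ratio is 1.60 in the lowest range of tags and 1.29 in the highest.

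The 937 regions carried 918 gene names, since 18 genes had more than 1 member region. ACTB, the β-actin gene, had 3, with 86, 40 and 50 tags. The other 17 genes had 2 each, and in 11 of these pairs both regions lay inside the same second interval, 7 to 340 bp apart. At MRPS22, a mitochondrial ribosomal protein gene, regions of 82 tags (chromosome 3, 139062533 to 139063121) and 35 tags (139063132 to 139063468) were 10 bp apart inside a second interval of 1216 bp. At POLR1B, a subunit of RNA polymerase I, regions of 37 and 88 tags were 7 bp apart inside 1037 bp. UBFD1 (38 and 48 tags, 28 bp apart) and QRICH1 (62 and 40 tags, 76 bp apart) had the same layout. In the other 6 pairs each region had a second interval of its own. ZNF500 had 76 tags at each of its regions, 953 bp apart, and at ZNF227 regions of 58 and 86 tags were 4450 bp apart. Another deposited region lay within 5 kb of 15.9% of members (13.6 to 18.4), 14.7% of the high-tag group (11.7 to 18.2) and 19.1% of cluster III (17.5 to 20.8), shares whose intervals overlap.

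Zinc finger genes were the list with most member genes. That list was also long, with 509 genes, against 82 cytoplasmic ribosomal protein genes and 48 proteasome genes. Counts of member genes are therefore not comparable between lists. Numbered ZNF genes, most of which encode DNA-binding repressors with KRAB domains that silence transposable elements, made up 85 of 918 member genes (9.26%, 7.46 to 11.3). They made up 26 of 479 high-tag genes (5.43%, 3.58 to 7.85) and 64 of 2211 cluster III genes (2.89%, 2.24 to 3.68). The intervals of members and the high-tag group overlapped, and the interval of members lay above that of cluster III. The 88 ZNF regions had 35 to 99 tags (median 60). Those with most tags were ZNF317 and ZNF837 (99 each), ZNF155, ZNF37A and ZNF667 (95 each) and ZNF219 (93). Of the 88, 51 lay on chromosome 19 (58.0%, 47.0 to 68.4), where 3 stretches held 46 of them: 7 between 37340897 and 38085962, 15 between 44100343 and 45004777, and 24 between 56989037 and 58987619. These stretches were drawn after the positions were seen. Tag medians in them were 49, 64 and 53.5. Genes in such clusters are close relatives, and how reads matching several of them were treated is not stated.

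ZNF regions differed from the other members in the recorded side of the start and in the ratio of second to first width. By the authors' sign, ZNF regions lay before the start in 81.8% (72.2 to 89.2), against 67.7% (64.5 to 70.9) of the other members. The median distance of ZNF regions was 52 bp (43 to 58), inside the range where sides are uncertain. Their median ratio of second to first width was 1.28 (1.22 to 1.34), against 1.43 (1.41 to 1.47) in the other members, with median tagcounts of 60 (53 to 66) and 56 (54 to 58). An opposite-strand neighbour was a gene on the other strand starting within 1 kb on either side, so overlapping genes counted too. Such a neighbour was annotated at 25% of ZNF members (15.99 to 35.9) and 38.8% of the others (35.4 to 42.3), intervals that overlap slightly. In promoter letters the ETS core was in 37.7% (26.9 to 49.4) of ZNF promoters and 26.5% (23.2 to 30.04) of the others, and the CCAAT box in 48.1% (36.5 to 59.7) and 34.5% (30.9 to 38.2), with overlapping intervals in each case.

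Chromosome 19 as a whole held 130 members (13.9%, 11.7 to 16.3), against 8.90% (6.52 to 11.8) of the high-tag group and 4.96% (4.12 to 5.92) of cluster III. Its 51 ZNF regions were 39.2% of those members. Chromosome 1 stood the other way, with 13.1% of members (11.03 to 15.5), 22.8% of the high-tag group (19.1 to 26.8) and 20.4% of cluster III (18.8 to 22.1). Of the cluster II start promoters on chromosome 19, 75.1% were members (68.0 to 81.4). The share was higher on chromosomes 4 (81.25%), 9 (78.1%), X (77.3%), 10 (76.5%) and 15 (76.5%). It was lowest on chromosome 1 (52.8%, 46.2 to 59.3). Among cluster II start promoters the tag limit alone decides membership, so these shares only describe tagcounts. Per 100 protein-coding RefSeq genes, there were 8.96 members on chromosome 19, the highest value, and 8.20 on chromosome 16. Chromosome 1 had 5.97 by this count, and the lowest value was 1.69 on chromosome 4.

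The other gene groups were small. In all, 252 member genes fell in one of the 26 lists used and 666 in none. Cytoplasmic ribosomal protein genes numbered 20 (2.18%, 1.34 to 3.34), with 35 to 89 tags, against 1.67% of the high-tag group and 1.402% of cluster III. RPS6 (89 tags, 779 bp) and RPL7A (88 tags, 583 bp) had the most tags of these. Mitochondrial ribosomal proteins supplied 14 genes (1.53%), led by MRPS25 (84 tags) and MRPS22 (82 tags), against 1.25% of high-tag genes and 0.905% of cluster III genes. The proteasome, which degrades ubiquitin-tagged proteins, supplied 10 genes (1.09%, 0.524 to 1.99), against 0.418% of high-tag genes and 0.452% of cluster III genes. PSMD1 (85 tags) and PSMB5 (76 tags), a regulatory and a catalytic subunit, led that list. The respiratory chain supplied 9 genes, with NDUFS3 at 88 tags, NDUFS7 at 79 and NDUFB10 at 78. In each of these 4 lists the intervals of the 3 sets of promoters overlapped.

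Translation factors supplied 9 genes (0.980%), against 0.418% of high-tag genes and 0.678% of cluster III genes. They were led by EIF2S2 (95 tags) and EIF2D (94). Ubiquitin enzymes supplied 12 (1.31%), against 1.25% and 1.13%, led by FBXO46 (99 tags) and the deubiquitinase gene USP21 (85). DNA replication and repair supplied 10 (1.09%), against 0.835% and 1.31%. Among them were the exonuclease gene EXO1 (92 tags), RAD51B of homologous recombination (88) and the DNA ligase gene LIG1 (81). RNA polymerase II machinery supplied 7 (0.763%), against 0.626% and 1.04%, led by the Mediator subunit gene MED15 (93 tags) and POLR2E (84). Splicing factors and RNA helicases supplied 9 (0.980%, 0.449 to 1.85), against 0.835% of the high-tag group and 1.99% (1.45 to 2.66) of cluster III. In every one of these lists the intervals of the 3 sets of promoters overlapped.

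Transport and membrane genes were spread thinly. Genes with TMEM names numbered 12, led by TMEM261 (82 tags), and solute carriers 10, led by SLC25A53 (82 tags). Genes with names of vesicle traffic complexes numbered 8 (0.871%, 0.377 to 1.71), led by the adaptor gene AP5S1 (94 tags). The shares were 2.30% (1.15 to 4.07) of the high-tag group and 0.9498% of cluster III. The 8 include VPS72 (55 tags), whose name alone does not show a role in traffic. RAB and ARF GTPases, which direct vesicles, supplied 6, led by RAB8B (86 tags). The cell cycle list supplied 7, led by CCND1 (98 tags) and the retinoblastoma-like repressor gene RBL2 (91 tags). The lists of tRNA synthetases, cilium and basal body genes, and other chromatin enzymes supplied 3 each. They were led by MARS (92 tags), PCM1 (85 tags) and the deacetylase gene SIRT2 (97 tags). In each of these 8 lists the intervals of the 3 sets of promoters overlapped.

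Of the 26 lists, small RNA genes were the only one in which the intervals of members and the high-tag group did not overlap. They were 9 of 918 member genes (0.980%, 0.449 to 1.85), against 22 of 479 high-tag genes (4.59%, 2.90 to 6.87) and 18 of 2211 cluster III genes (0.814%, 0.483 to 1.28). Members among them were RNU1-122P (99 tags), RNVU1-16 (83) and RNU5E-4P (76), all annotated as small nuclear RNA, whether working genes or copies. Others were the nucleolar RNA gene SNORA73B (79) and the microRNA genes MIR135B (68) and MIR3124 (65). Several of these RNAs have near-identical copies, so their reads may be split among loci.

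Of 25 listed genes of the H3K4 methylation machinery, 3 were members. CXXC1 (42 tags), SETD1A (80 tags), both of an H3K4 methyltransferase complex, and KDM5B (67 tags), an H3K4 demethylase, made up 0.327% of the 918 (0.0674 to 0.952), against 1.04% (0.340 to 2.42) of the high-tag group and 0.136% (0.0280 to 0.396) of cluster III, with overlapping intervals. Of Polycomb genes only MTF2 (77 tags) was a member, of retinoid genes RDH11, a retinol dehydrogenase (37 tags), and of pluripotency genes SALL4 (67 tags) and LIN28A (45 tags). No HOX gene, listed neural lineage gene or arginine methyltransferase gene was among the 918, and a count of 0 allows a share of up to 0.401% by the exact interval. The high-tag group also had 0 of each, and in cluster III the shares were 0.226% for HOX genes, 0.0905% for neural lineage genes and 0.136% for arginine methyltransferases, below that limit.

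**Figure D3:**
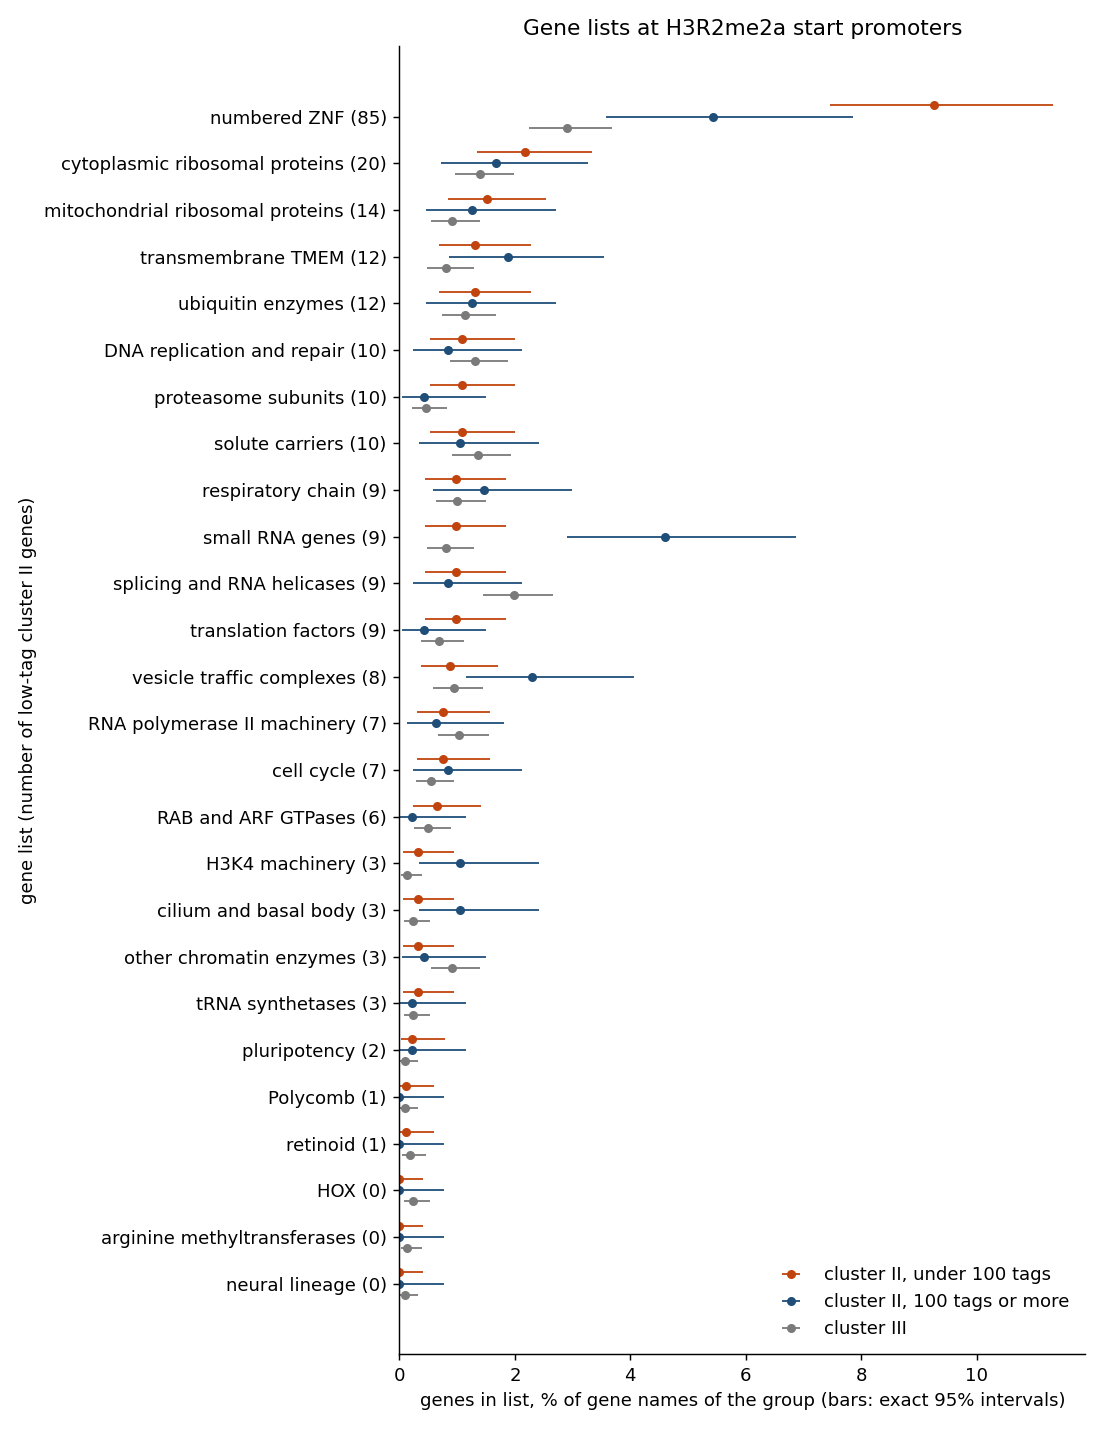
Share of gene names in each of 26 gene lists, in percent, for cluster II start promoters under 100 tags, those of 100 tags or more and cluster III, with exact 95% intervals. The number in brackets is the count of member genes. Numbered ZNF genes stand at 9.26%, 5.43% and 2.89%, and small RNA genes at 0.980%, 4.59% and 0.814%.

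Most members lay at starts of protein-coding genes. Such genes were nearest to 90.6% (88.6 to 92.4) and long non-coding genes to 7.36% (5.77 to 9.23). An opposite-strand start within 1 kb was annotated for 37.5% (34.3 to 40.9) of the 863 members whose transcript was found in GENCODE 44. The share was 42.5% (37.8 to 47.3) in the high-tag group and 36.7% (34.7 to 38.8) in cluster III. The partner was protein-coding in 24.1% of members (21.3 to 27.1), 28.4% of the high-tag group (24.2 to 32.9) and 18.96% of cluster III (17.3 to 20.7). The interval of members lay above that of cluster III and overlapped that of the high-tag group. Examples were MDH2 beside STYXL1, NDUFS3 beside KBTBD4 and RPL7A beside MED22.

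Promoter sequence was read from the RefSeq table, in a window of 250 bases before to 50 after the start. It held 757 of the 937 members (80.8%) and 742 of the 918 genes (80.8%), which gave 741 distinct promoters. CpG-rich promoters prevailed in every set. The ratio of observed to expected CG pairs was at least 0.6 in 91.6% of members (89.4 to 93.5), 90.9% of the high-tag group (87.5 to 93.6) and 92.6% of cluster III (91.3 to 93.8), against 65.8% (65.04 to 66.5) of protein-coding RefSeq promoters and 49.0% of all 27305 RefSeq genes. Median GC content was 62.3% in members (61.7 to 63), 61% in the high-tag group (60 to 62) and 65.3% in cluster III (64.7 to 66).

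A total of 11 motifs were counted as exact letters on either strand, none of which contains another. They were the GC box GGGCGG, the CCAAT box CCAAT, the ETS core CCGGAAG, the YY1 core ATGGCGG, the TATA box TATAAA, the E-box CACGTG, the CRE TGACGTCA, the CG decamer core TCGCGAGA, the NRF1 core GCGCATGCG, the ZNF143 core ACTACAA and the nuclear receptor half-site AGGTCA. A match describes letters and is no evidence of binding. The ZNF143 core was in 129 of 741 member promoters (17.4%, 14.7 to 20.3), 121 of 383 high-tag promoters (31.6%, 26.96 to 36.5) and 47 of 1761 cluster III promoters (2.67%, 1.97 to 3.53). All RefSeq promoters, 1 per gene, held it in 2.95% (2.75 to 3.16), and protein-coding ones in 3.14% (2.88 to 3.43). The intervals of the 3 sets did not overlap, with members between the high-tag group and cluster III. Among all 8192 pairs of 7-base words and their reverse complements, ACTACAA had the largest difference in share between members and cluster III in either direction (14.7 percentage points higher in members). The largest difference the other way was CCCCGCC, in 37.4% of members and 51.3% of cluster III. ACTACAA also had the largest between the high-tag group and members (14.2 points). The 4 words next in rank in the comparison with cluster III, such as GACTACA, overlap it by most of their letters.

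Other motifs varied less. The ETS core was in 27.7% of members (24.5 to 31.0), 20.1% of the high-tag group (16.2 to 24.5) and 26.0% of cluster III (24.0 to 28.1), against 14.2% (13.7 to 14.8) of protein-coding RefSeq promoters. The GC box was in 62.1% of members (58.5 to 65.6), 54.8% of the high-tag group (49.7 to 59.9) and 72.8% of cluster III (70.7 to 74.9), against 58.5% (57.7 to 59.3) of protein-coding promoters, whose interval meets that of members. The YY1 core was in 14.3% of members, 13.6% of the high-tag group and 15.4% of cluster III, against 7.63% of protein-coding promoters. The CCAAT box was in 35.9% of members, 36.8% of the high-tag group and 34.9% of cluster III, against 36.4% of protein-coding promoters. The TATA box was in 5.13% of members (3.65 to 6.97), 9.14% of the high-tag group (6.45 to 12.5) and 4.88% of cluster III (3.92 to 5.996), against 9.63% of protein-coding promoters. The nuclear receptor half-site was in 9.31% of members (7.32 to 11.6), 8.36% of the high-tag group and 10.3% of cluster III, against 11.7% of protein-coding promoters. The E-box was in 9.18% of members and 8.88% of protein-coding promoters, and the CRE in 2.43% and 2.59%. The CG decamer core and the NRF1 core were in 3.51% of members each, against 1.75% and 2.76% of protein-coding promoters.

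Among members the share of promoters with the ZNF143 core was lowest in the lowest range of tags and highest in the highest, with no steady order between. It was 12.4% (8.17 to 17.7) at 35 to 44 tags, 18.2% (12.4 to 25.2) at 45 to 54, 17.5% (12.02 to 24.1) at 55 to 69, 15.9% (9.97 to 23.4) at 70 to 84 and 26.2% (18.1 to 35.6) at 85 to 99. Above the limit it was 23.2% (16.1 to 31.6) at 100 to 129 tags and 34.0%, 36.7% and 35.1% in the 3 ranges above that. Neighbouring ranges have overlapping intervals. Those of the lowest and the highest range of members only just miss each other, at 17.7 and 18.1. The ranges cut the tagcount that chose the members, so these shares are a description. Cluster III start promoters of 35 to 98 tags held the core in 3.58% (2.28 to 5.33). They resemble members in tagcount only, since tagcount in cluster III was a median of 0.486 times the MACS tags. The ETS core showed no such order, with 24.3% at 35 to 44 tags, 31.9% at 55 to 69 and 24.3% at 85 to 99.

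**Figure D4:**
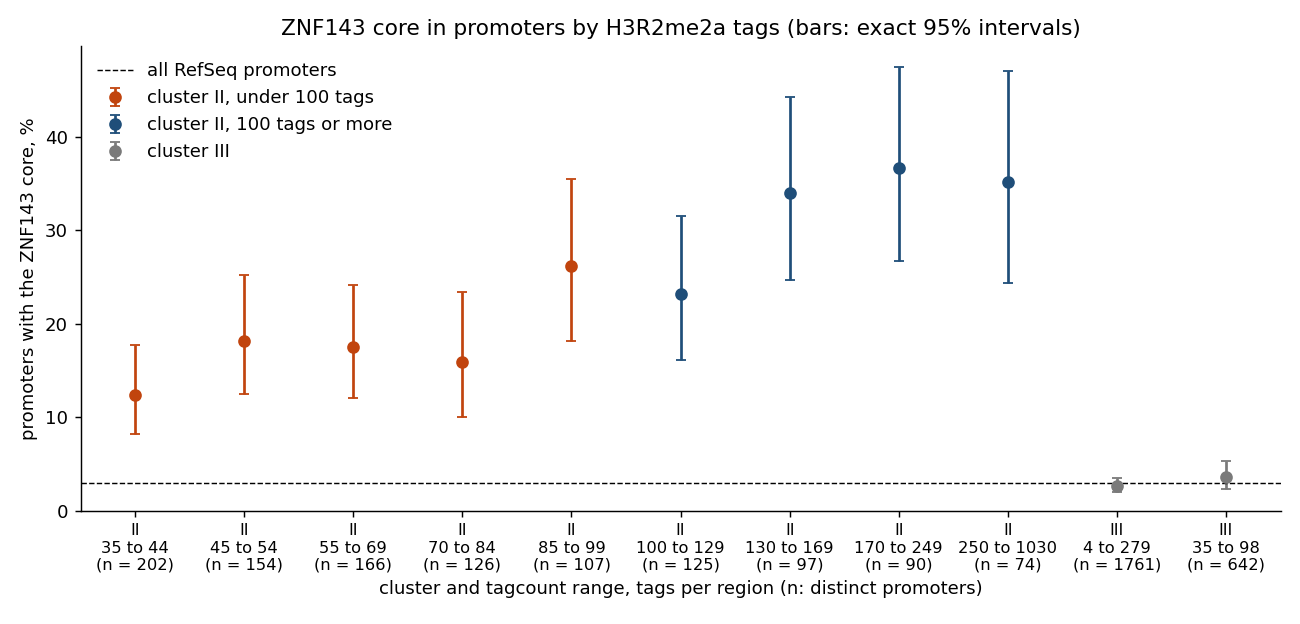
Share of distinct promoters with the ZNF143 core in percent by tagcount range, for cluster II under 100 tags, cluster II of 100 tags or more, and cluster III (all, and those of 35 to 98 tags), with exact 95% intervals. The dashed line is the share of all RefSeq promoters. The lowest range of members stands at 12.4%, the highest range of cluster II above 100 tags at 35.1% and cluster III near the line. In cluster III, tagcount was a median of 0.486 times the MACS tags.

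The letters after the core were also shared. Aligned on ACTACAA, the 135 cores of member promoters with all following bases inside the window had T at position 9 of the alignment in 81.5%, C at position 11 in 91.1% and C at position 12 in 88.9%. With N wherever no base reached 60%, the alignment read ACTACAANTCCCAGNNNGC. Its first 12 letters were in 95 member promoters (12.8%, 10.498 to 15.4), 88 high-tag promoters (23.0%, 18.9 to 27.5) and 21 cluster III promoters (1.19%, 0.740 to 1.82), against 1.03% of all promoters. Of the member promoters with the core, 73.6% (65.2 to 81.0) had these longer letters, against 72.7% (63.9 to 80.4) of the high-tag ones and 44.7% (30.2 to 59.9) of those in cluster III. The 12 letters were read off the members themselves, so their share in members is a description.

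The 140 cores of members had their centre at a median position of -95 relative to the RefSeq start (quartiles -150 and -59.2), against -107 for the 151 cores of the high-tag group and -76 for the 49 of cluster III. Of the 140 cores, 84 read in the direction of the gene and 56 in the other direction.

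**Figure D5:**
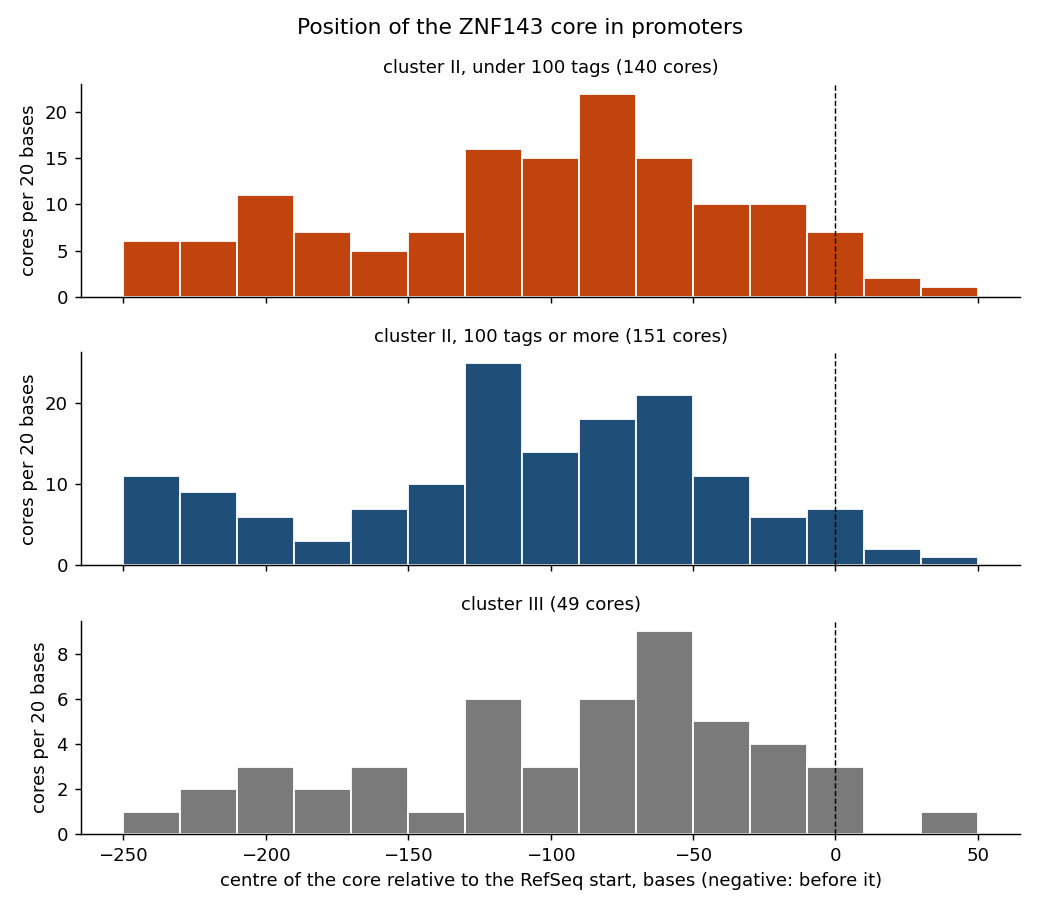
Number of ZNF143 cores per 20 bases by the position of their centre relative to the RefSeq start, for cluster II under 100 tags (top, 140 cores), cluster II of 100 tags or more (middle, 151) and cluster III (bottom, 49). The dashed line is the start. Most cores lie before the start in all 3 panels, with medians of -95, -107 and -76.

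Members with and without the core had overlapping intervals for tagcount and width ratio, and intervals that did not overlap for an opposite-strand neighbour. Among genes with a promoter in the table, 129 had the core and 613 did not. Their median tagcounts were 62 (54 to 67) and 56 (53 to 58), their widths 470 and 465 bp, and their ratios of second to first width 1.45 (1.37 to 1.55) and 1.39 (1.36 to 1.44). Regions lay before the start in 79.1% (71.0 to 85.7) of those with the core and 67.5% (63.7 to 71.2) of those without, intervals that overlap slightly. The median distance to the start was 51 bp with and without the core, inside the range where sides are uncertain. An opposite-strand start within 1 kb was annotated for 26.7% (19.01 to 35.5) of those with the core and 41.0% (36.9 to 45.2) of those without. These intervals do not overlap. The core was in 10 of 77 ZNF promoters (13.0%, 6.41 to 22.6) and 119 of 664 other member promoters (17.9%, 15.1 to 21.05). The ZNF genes with it were ZNF180, ZNF227, ZNF286A, ZNF317, ZNF32, ZNF451, ZNF554, ZNF689, ZNF8 and ZNF805. Of the 14 cytoplasmic ribosomal protein genes with a promoter in the table, none had the core. It was present at PSMD11 and PSMD2 of the proteasome, USP39, UBE2V1 and FBXO9 of the ubiquitin enzymes, SF3B2 and DHX30 of splicing and RNA helicases, NDUFB10, POLR2E, TOP3A, SIRT2 and RAB5C.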

How the data were processed

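The H3R2me2a libraries of ATRA-treated and untreated control cells were used, 1 each. The submitters' processing notes name bcl2fastq, Bowtie2, deepTools, MACS 1.4 and build hg19, without roles. Tag counts per region were deposited as unscaled whole numbers, and distances, lengths and summits in base pairs, per the file headers. The library behind tagcount, the cluster criteria and the sequencing depth are not stated. At the 202 regions of cluster I, tagcount exceeded the MACS tags by 0 to 8, and in cluster III it was a median of 0.486 times them. The lists were matched on identical coordinates.

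Shares carry Clopper-Pearson and medians order-statistic 95% intervals (Python 3.11.15, scipy 1.17.1, pandas 2.3.3), tested on simulated data. Names, biotypes and opposite-strand neighbours, counted on either side of the start, came from GENCODE 44, since the RefSeq gene table has no strand. Promoters came from RefSeq on GRCh38.p14, 1 per gene. For the region sets the promoter was the one nearest to the start of the authors' transcript, where that was found. For all and for protein-coding RefSeq promoters it was the first listed one of each gene. With the first listed promoter, 16.2% of member promoters held the ZNF143 core. The hg38 coordinates were never set against the hg19 regions.

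Members and lists were chosen with earlier results of these data known. Genes were named by extremes of tagcount, width, tags per kb and width ratio, by several regions or neighbours, and by up to 6 members of each list with most tags. GLI1 and other genes given as examples came from these sets, apart from those listed with the ZNF143 core.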

Additional observations from a re-analysis of the deposited data

How the results depend on the processing

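Of 126 recalculations of 47 results, 108 stayed inside the 95% interval of the reported value (for the number of members, within 1.5 times it) and 18 did not. With a tagcount limit of 75 the members' median width was 435 bp and the median width ratio 1.47, and the share of Polycomb genes was 0%. With a limit of 150 they were 499 bp and 1.38. The second interval in place of the first gave a median width of 666 bp. Another region lay within 1 kb of 10.99% and within 25 kb of 36.4% of members. An opposite-strand start within 2 kb was annotated for 42.8%, and 75.3% of promoters reached a CpG ratio of 0.75. In the 200 bases before the start alone, motif shares were 53.6% for the GC box, 30.4% for the CCAAT box, 22.1% for the ETS core, 5.13% for the YY1 core, 3.37% for the TATA box, 7.15% for the E-box, 14.2% for the ZNF143 core and 6.34% for the nuclear receptor half-site, by construction fewer than in 300 bases. The share with the ZNF143 core ran from 15.9% to 19.3% over tag limits, gene filters and choices of promoter, most of them chosen after seeing the data. No paired analysis was possible because there was 1 library per condition. The unknown depth and the lack of replicates limit every value.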

Other observations

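Histone genes of the replication-dependent clusters were a further group, listed after their values were seen. They were 16 of 918 member genes (1.74%, 0.999 to 2.81), against 26 of 479 high-tag genes (5.43%, 3.58 to 7.85) and 9 of 2211 cluster III genes (0.407%, 0.186 to 0.771). Their 20 member regions had 36 to 96 tags and a median ratio of second to first width of 2.81. They spanned linker histones (HIST1H1B, HIST1H1C) and core histones of the H2A, H2B and H3 kinds, and none of the 14 with a promoter in the table held the ZNF143 core. Zinc finger genes with ZBTB, ZFP, ZKSCAN or ZSCAN names, also listed afterwards, were 11 of 918 (1.20%), 3 of 479 (0.626%) and 13 of 2211 (0.588%).

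The 11 regions on the short arm of chromosome 12 that met every other condition had 35 to 95 tags. They were at FKBP4 (67 tags), MLF2 (45), PTMS (72), PEX5 (95), ETV6 (78), GRIN2B (35), PLEKHA5 (79), SLCO1A2 (46), SOX5 (60 and 36) and BHLHE41 (65). The regions of MLF2 and PTMS each had a second interval of 2983 bp.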
